A study of Arabidopsis thaliana with 6 samples.

Results

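Genes for the synthesis of chlorophyll, carotenoids and plastid isoprenoids were followed in whole seedlings of Arabidopsis thaliana. The genes were chosen by words in their descriptions (protochlorophyllide, porphyrin, chelatase, carotene, geranylgeranyl and the like), which gave 30 of the 5330 genes in the tables. Of these, 24 were listed lower and 6 higher, while 33.9% of all listed genes were lower and 66.1% higher. Both groups were of the Columbia-0 ecotype. One group was wild type (Col-0), the other was labelled as the double mutant epl1a epl1b, and each had 3 libraries, each from an independent experiment per the design text. EPL1A and EPL1B encode Enhancer of Polycomb-like subunits of NuA4, a complex that acetylates histone H4, and the series title asks about its role when chloroplasts form. All seedlings were kept at 4 °C for 3 days (stratification) and grew for 14 days at 22 °C, on medium with 1% sucrose. Light was given for 16 h a day at 100 µmol per square metre and second, and sampling was 8 h after dawn. The sucrose supplies carbon that a seedling would otherwise fix itself.

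Chlorophyll is built from glutamate through 5-aminolevulinate and a chain of porphyrins. At protoporphyrin IX the chain forks into a magnesium branch, which ends in chlorophyll, and an iron branch, which gives heme and the bilins. The phytyl tail of chlorophyll, the carotenoids, the tocopherols and phylloquinone all come from isoprenoid units made inside the plastid by the methylerythritol phosphate (MEP) pathway. Carotenoids protect the photosystems from excess light and are also the source of abscisic acid and strigolactones.

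Only genes that passed the authors' limits are in the tables, a false discovery rate under 0.05 and a log2 fold change of 1 or more in either direction. Other genes are not analysed here. Reads in the listed genes came to between 7355421 and 10938542 per library, which is not the depth of a library. Each level is given as normalised reads, the count after correction for library scaling, with Col-0 replicate 1 set to 1. The pair of mutated genes went apart. EPL1A (AT1G16690) had 367.2 ± 9.59 normalised reads in Col-0 and fell to 124.5 ± 3.34 (SD, n = 3 per group), whereas EPL1B (AT1G79020) rose from 719.5 ± 57.5 to 17051 ± 68.8. A gene count does not show which part of a gene its reads cover. Because reads of EPL1B rose in the group labelled as its mutant, that group is called epl1ab-labelled throughout, and directions are drawn between labels. Green tissue was present in all libraries: the 3 of 9 green tissue markers in the tables, LHCB3, LHCB4.1 and PSAD1, summed to between 331455 and 376884 normalised reads in Col-0 and to between 127944 and 145922 in epl1ab-labelled libraries. Fewer green cells and less of these RNAs per cell cannot be told apart in whole seedlings.

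All 30 genes passed the filter on low counts, and edgeR called 24 lower and 6 higher, with adjusted p between 9.12e-07 and 0.000548 (quasi-likelihood test, Benjamini-Hochberg). Of the 4773 genes in the fit, 36.9% were called lower and 63.1% higher, and 100% were called in one direction or the other, because the rows had been selected on this same contrast. The p-values therefore add nothing to the selection, and the direction and the size of each change are what the counts describe. The median log2 fold change of the 30 genes was -1.66 in the authors' deposited table, against 1.37 for all listed genes. Among genes listed lower, the median in that table was -1.75 for the 24 and -1.45 for all 1806. The normalised reads of both groups did not overlap for any of the 30 genes, which also held for 98.5% of all listed genes.

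Except for D27, the lower genes had higher levels in Col-0 than the higher genes. D27 had a Col-0 mean of 95.2 normalised reads, below RGTB2, listed higher, at 129.8. In the tables at large, the median Col-0 level was 1438 normalised reads for all genes listed lower and 30.4 for all listed higher. Per kilobase of exon, Col-0 means ran from 570.3 (AT2G32640) to 38382 (PORB) normalised reads over the lower genes, except D27 at 84.6. Over the 6 higher genes they ran from 2.96 (AT3G20160) to 63.4 (RGTB2). The 24 genes together had 272212, 280991 and 261081 normalised reads in Col-0 and 92718, 81287 and 77874 in the epl1ab-labelled libraries, 30.9% of the Col-0 sum. Over the 6 higher genes the sums were 229, 230.9 and 233.0 in Col-0, against 726.2, 706.0 and 710.4. The reads gained by the rising genes were thus few beside those lost by the falling ones.

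**Figure D1:**
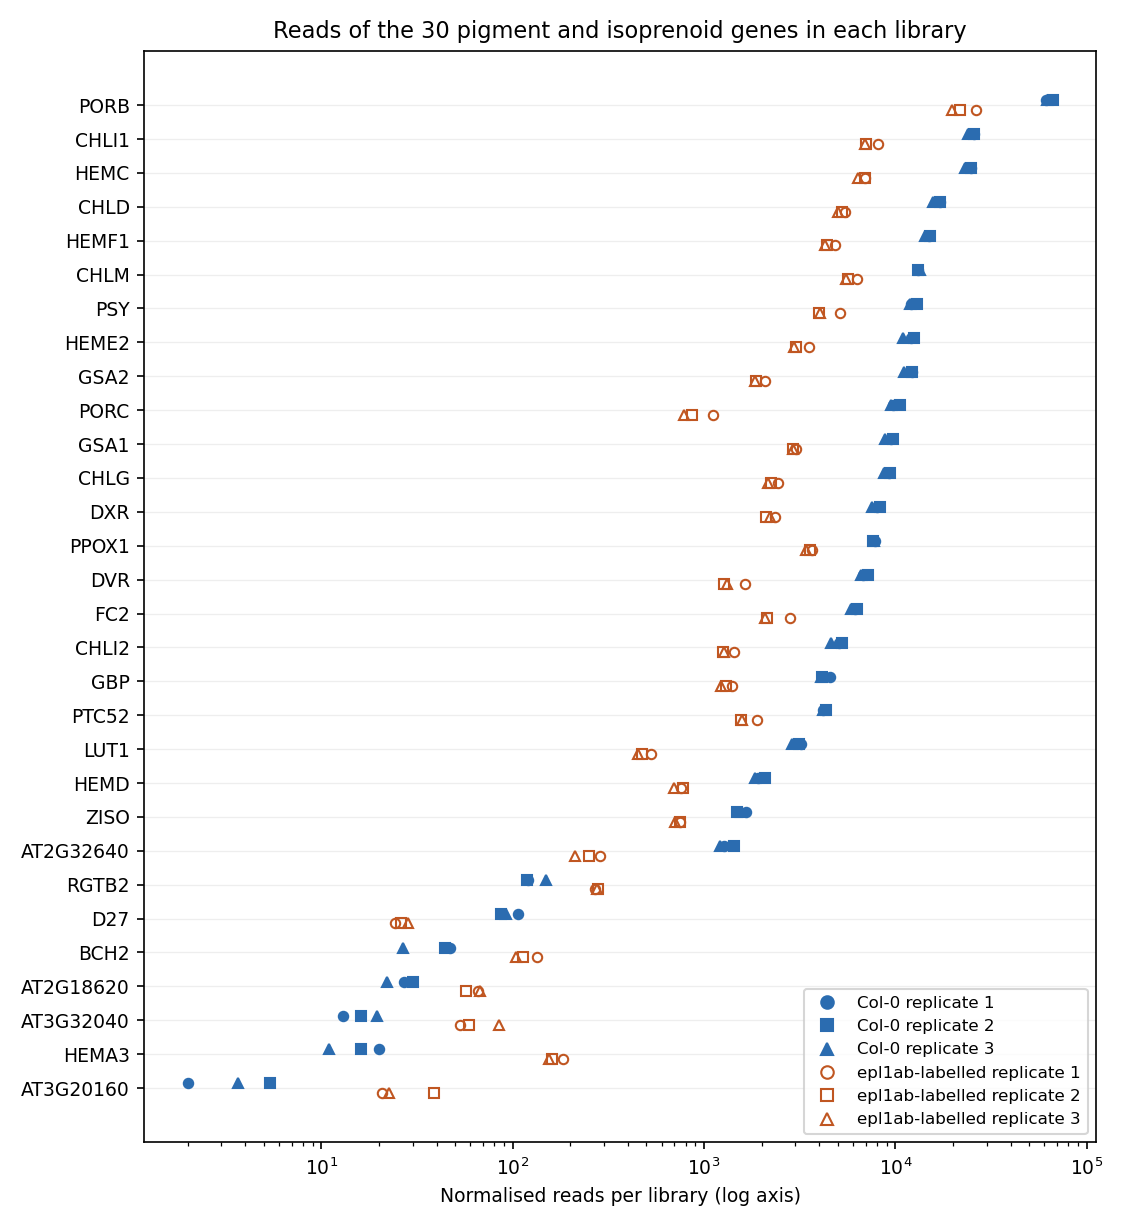
Normalised reads (log axis) of each of the 30 genes in each of the 6 libraries, ordered by the Col-0 mean, with filled blue symbols for Col-0, open orange ones for epl1ab-labelled libraries, and a symbol shape for each replicate. The blue and orange symbols are apart in every row, orange to the left for 24 genes and to the right for the 6 with few reads; RGTB2, one of the 6, falls to a log2 fold change of -0.020 when size factors are estimated from the listed genes.

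The first committed steps make 5-aminolevulinate, and here the genes moved both ways. GSA2 (AT3G48730, chromosome 3, 18049571 to 18051778, plus strand, TAIR10) and GSA1 (AT5G63570, chromosome 5, 25451800 to 25453845, plus strand) encode the aminomutase that makes 5-aminolevulinate. GSA2 had 12242, 12154 and 11040.3 normalised reads in Col-0 and 2071, 1858 and 1837 in the epl1ab-labelled libraries. It fell 6.15-fold by edgeR (log2 fold change -2.62 ± 0.087 SE). GSA1 had 9463, 9746 and 8861 normalised reads in Col-0 and 3007, 2900.3 and 2925 in the epl1ab-labelled libraries, a 3.18-fold fall. Per kilobase of exon, GSA2 had the higher mean in Col-0, with 6662 normalised reads against 4774 for GSA1, and the lower one in the epl1ab-labelled libraries, with 1084 against 1502. Its share of the reads of the pair went from 55.8 ± 0.529% to 39.5 ± 1.17% (SD, n = 3 per group).

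GBP, the protein that binds glutamyl-tRNA reductase at the thylakoid membrane and stabilises it, fell 3.26-fold, with 4573, 4147 and 4073 normalised reads in Col-0 and 1398, 1309 and 1221 in the epl1ab-labelled libraries. Glutamyl-tRNA reductase itself, the rate-limiting enzyme ahead of GSA, was represented by HEMA3, a minor copy that rose. HEMA3 (AT2G31250, chromosome 2, 13319621 to 13321597, minus strand) had 20, 16.1 and 10.98 normalised reads in Col-0 and 183.5, 160.1 and 154.8 in the epl1ab-labelled libraries. Its rise of 10.4-fold (log2 fold change 3.38 ± 0.23 SE, edgeR) rests on 44 reads over the 3 Col-0 libraries. HEMA1 and HEMA2, the other genes for this enzyme, are not analysed here. FLU, which restrains glutamyl-tRNA reductase in the dark and whose description lacks the chosen words, fell 3.84-fold.

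From 5-aminolevulinate to protoporphyrin IX the listed genes all fell. HEME2, uroporphyrinogen decarboxylase, had 12060.0, 12490.3 and 10928 normalised reads in Col-0 and 3533, 3009 and 2962 in the epl1ab-labelled libraries, a fall of 3.73-fold. HEMC, porphobilinogen deaminase, had 24955, 24723 and 23004 in Col-0 and 6965, 6938 and 6401 in the other group, a fall of 3.58-fold. HEMF1, coproporphyrinogen III oxidase, whose loss causes lesions in Arabidopsis, had 15037, 15162 and 14206 normalised reads in Col-0 and 4847, 4391 and 4275 in the epl1ab-labelled libraries, a fall of 3.29-fold. These 3 were picked as the largest falls among the chosen genes of this list. The groups did not overlap for them, as for 98.5% of all listed genes. HEMD, uroporphyrinogen III synthase, fell 2.62-fold and PPOX1, the plastid protoporphyrinogen oxidase, 2.18-fold. PPOX1 was close to the authors' fold limit, with -1.12 in their deposited table. Beside these 5, HEMB1 (5-aminolevulinate dehydratase) fell 3.09-fold and HEMN (a coproporphyrinogen oxidase-like gene) 2.39-fold. Together 7 of the 11 genes in this list (63.6%) were listed lower and 0 higher. The shares of all nuclear protein-coding genes in the reference annotation were 6.31% lower and 12.3% higher. That edgeR called the same 7 lower adds nothing, since it called 100% of the genes in the fit.

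In the magnesium branch 12 of 17 genes (70.6%) were listed lower and 0 higher, 8 of them chosen by description. Among all nuclear protein-coding genes in the reference annotation, 6.31% were listed lower and 12.3% higher. Magnesium chelatase inserts the metal, and its ATPase subunits CHLI1, CHLI2 and CHLD fell 3.43-fold, 3.76-fold and 3.16-fold. CHLI1 had 25706, 25871 and 23951 normalised reads in Col-0 and 8105, 7014 and 6892 in the epl1ab-labelled libraries. CHLI2 had 5065, 5249 and 4580.1 in Col-0 and 1439, 1257 and 1264 in the epl1ab-labelled libraries. CHLM, the methyltransferase that follows the chelatase, fell less, 2.27-fold from 13232 ± 159 to 5818 ± 419 (SD, n = 3 per group). DVR, which reduces the 8-vinyl group of the chlorin ring, fell 4.88-fold, with 6753, 7208 and 6605 normalised reads in Col-0 and 1635, 1265 and 1309.6 in the epl1ab-labelled libraries. CHLG, the chlorophyll synthase that attaches the phytyl tail, fell 4.01-fold, with 9224, 9351 and 8686 normalised reads in Col-0 and 2426, 2227 and 2149.7 in the epl1ab-labelled libraries. The highest epl1ab-labelled library of both genes, replicate 1, stayed below the lowest Col-0 library. The groups did not overlap for 98.5% of all listed genes either.

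Protochlorophyllide oxidoreductase (POR) carries out the light-dependent step, and all 3 copies fell, PORC further than PORB. PORC (AT1G03630, chromosome 1, 907523 to 909650, plus strand) had 9683, 10584 and 9515 normalised reads in Col-0 and 1112, 859.4 and 789.9 in the epl1ab-labelled libraries, the largest fall among the 30 genes (10.8-fold, log2 fold change -3.43 ± 0.14 SE, edgeR). PORB (AT4G27440, chromosome 4, 13725546 to 13727440, plus strand), the most abundant of the 30 per kilobase of exon in Col-0, had 60965, 66383 and 61607 in Col-0 and 26269, 21742 and 19837 in the epl1ab-labelled libraries, a 2.78-fold fall. PORA, the form of etiolated seedlings, which the chosen words missed, had 514, 384.5 and 329.4 normalised reads in Col-0 and 108.2, 58.8 and 41.0 in the epl1ab-labelled libraries. PORC went from 13.5 ± 0.193% to 3.89 ± 0.139% of all POR reads, while PORB went from 85.9 ± 0.285% to 95.8 ± 0.234% (SD, n = 3 per group). A share within a gene family does not depend on the scaling between libraries. PORC overlaps AT1G03620 on the opposite strand by 121 bases, and without strand in the counting, which the sources used here do not give, reads of both cannot be told apart there. The same holds for HEMC over 420 bases and GBP over 272 bases, each beside a long noncoding RNA gene. Among others, CHLI2 (136 bases), PPOX1 (121), CHLI1 (116), PSY (108) and PORB (71) also overlap a gene on the opposite strand.

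Ratios between copies were compared over libraries in 9 pairs. The log2 ratio of PORC to PORB was -2.67 ± 0.025 in Col-0 and -4.62 ± 0.054 in epl1ab-labelled libraries (SD, n = 3 per group; exact permutation test, two-sided, p = 0.1, adjusted p = 0.15 over 9 pairs). The smallest p that 3 against 3 libraries allow is 0.1, so no pair could pass. The log2 ratio of GSA2 to GSA1 went from 0.34 ± 0.031 to -0.62 ± 0.070, and that of CHLI2 to CHLI1 from -2.34 ± 0.043 to -2.47 ± 0.024, both with p = 0.1 in the exact permutation test (n = 3 per group). None of the values of one group lay within the other for these 3 pairs, but the shift of the CHLI pair was 1.09-fold, against 3.89-fold for PORC over PORB and 1.94-fold for GSA2 over GSA1. PORA to PORB, LIL3:1 to LIL3:2 and AT3G20160 to AT2G18620 were also apart. The log2 ratio of PORC to PORA overlapped between the groups, with 4.62 ± 0.34 in Col-0 and 3.83 ± 0.45 in the other group (SD, n = 3 per group; exact permutation test, two-sided, p = 0.2). So did the ratios of AT3G32040 to AT3G20160 and to AT2G18620.

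**Figure D2:**
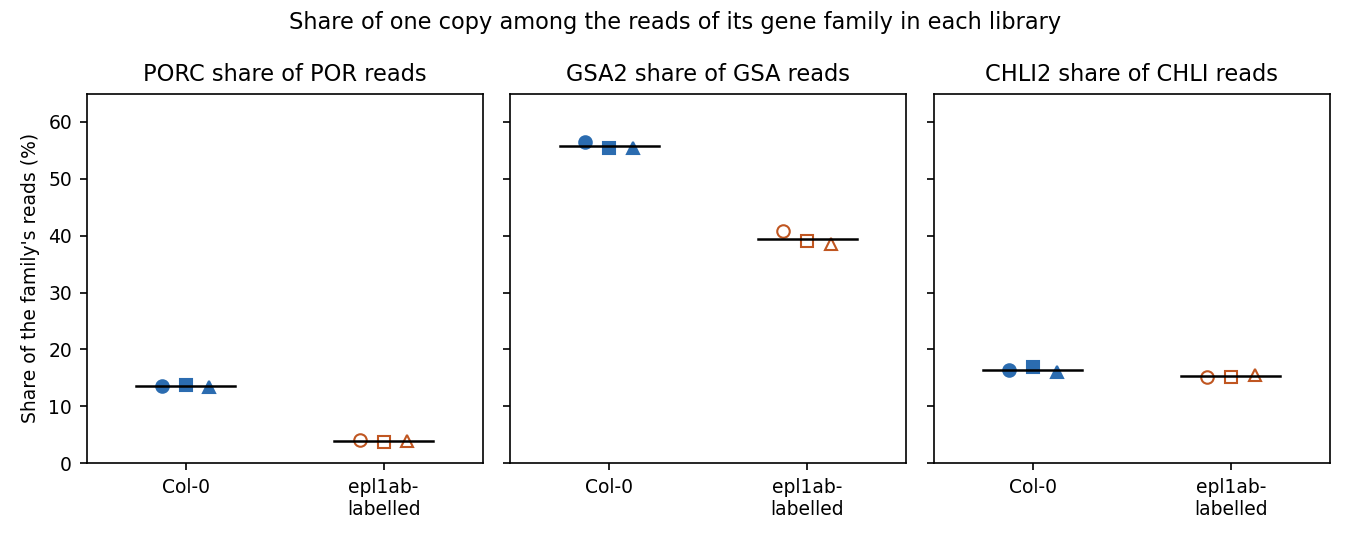
Share of reads (percent) taken by PORC among PORA, PORB and PORC, by GSA2 among GSA1 and GSA2, and by CHLI2 among CHLI1 and CHLI2, in each library, with the mean of each group as a line and circles, squares and triangles for replicates 1, 2 and 3. The PORC share fell from 13.5% to 3.89% and the GSA2 share from 55.8% to 39.5%, whereas the CHLI2 share moved from 16.5% to 15.3%.

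Counting by enzymatic step, 13 of the 14 steps from glutamyl-tRNA to chlorophyll a had at least 1 gene listed lower. The exception was glutamyl-tRNA reductase, where HEMA3 alone was listed, and higher. Over the 3 lists of this route, 23 of 35 genes were listed lower (65.7%) and 1 higher, beside 6.31% lower and 12.3% higher of 27444 nuclear protein-coding genes in the reference annotation. That background includes genes silent in seedlings. The oxidative cyclase was represented by its subunit LCAA, which fell 4.89-fold. LIL3:1 and LIL3:2, light-harvesting-like proteins that anchor geranylgeranyl reductase, fell 5.43-fold and 2.93-fold. CHLH, GUN4, CRD1, CAO and CHLP are not analysed here.

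**Figure D3:**
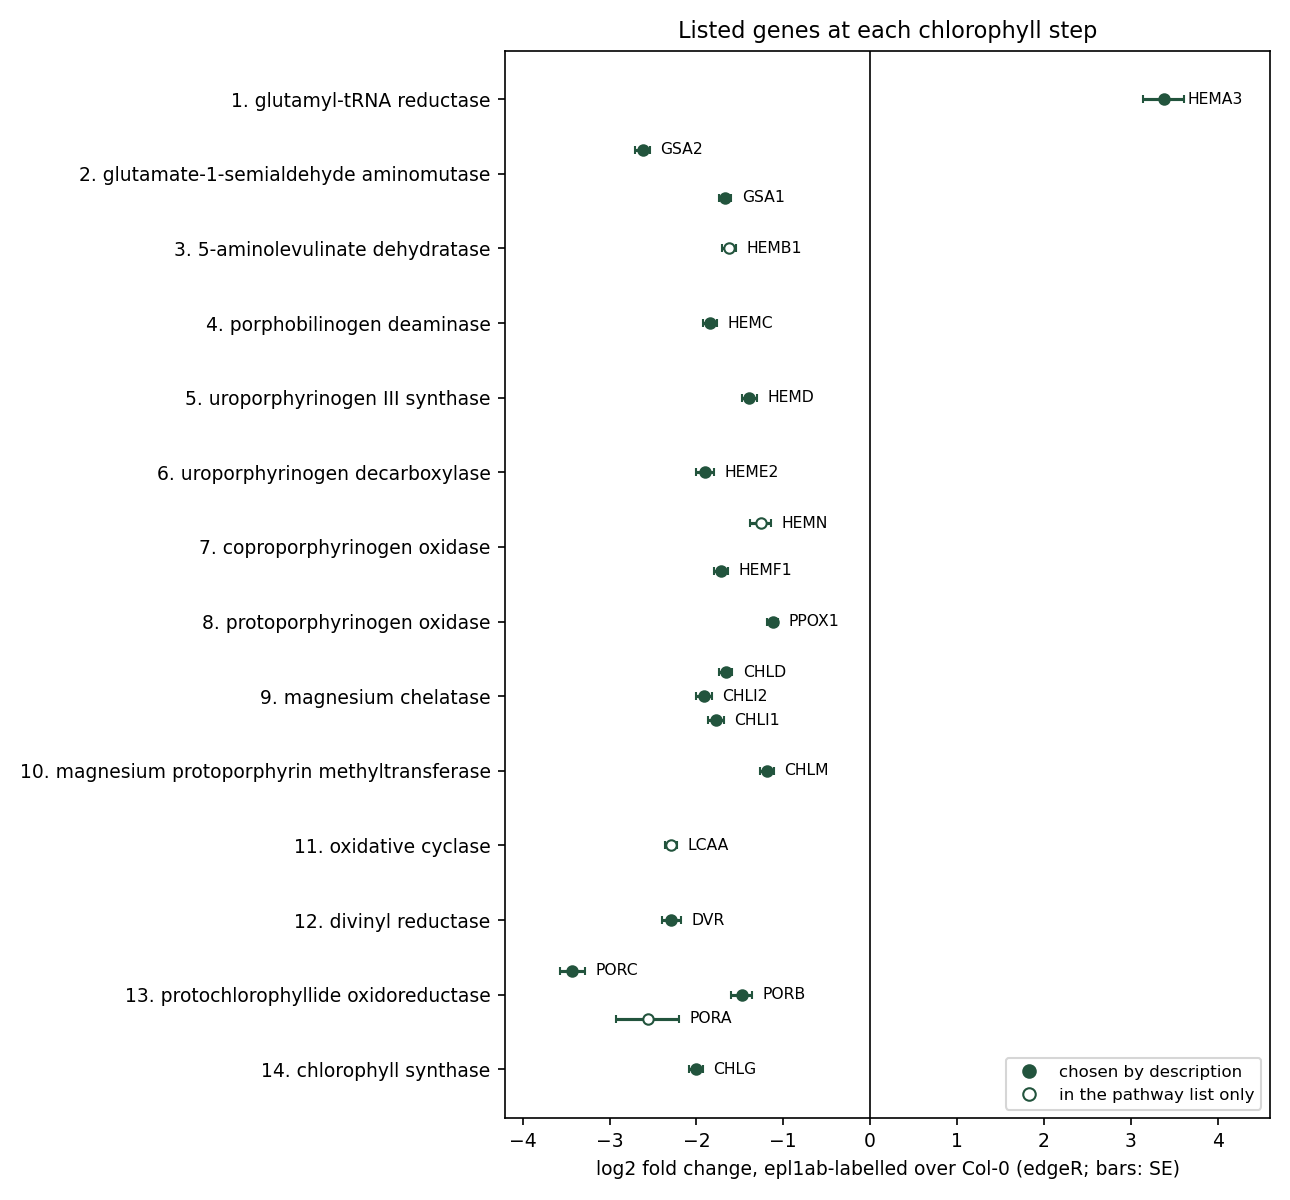
Log2 fold change (edgeR, epl1ab-labelled over Col-0, bars show the SE, n = 3 libraries per group) of each listed gene at the 14 steps from glutamyl-tRNA to chlorophyll a; filled points were chosen by description, open points came from the pathway list. All points but HEMA3 at step 1 lie left of 0, from PPOX1 at -1.12 to PORC at -3.43.

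On the iron branch, FC2, the ferrochelatase of photosynthetic tissue that makes heme, had 6129, 6284 and 5865 normalised reads in Col-0 and 2808, 2137 and 2086 in the epl1ab-labelled libraries, a fall of 2.60-fold. Replicate 1 of the epl1ab-labelled group stood above the other two. Of 9 genes in the list for heme, bilins and siroheme, 2 (22.2%) were listed lower and 1 (11.1%) higher. The shares of all nuclear protein-coding genes were 6.31% and 12.3%, so the higher share was near that of all genes. HO2, a heme oxygenase, fell 2.17-fold. HO3, another heme oxygenase, had 31, 9.67 and 24.4 normalised reads in Col-0 and 116.9, 124.4 and 121.3 in the epl1ab-labelled libraries, a rise of 5.53-fold from low counts.

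In the MEP pathway list 2 of 11 genes (18.2%) were listed lower and 0 higher, beside 6.31% and 12.3% of all nuclear protein-coding genes. These genes act at 2 of the 7 steps of the pathway. DXR (AT5G62790, chromosome 5, 25214125 to 25217469, minus strand), the reductoisomerase that makes MEP, had 8013, 8258 and 7535 normalised reads in Col-0 and 2339, 2114 and 2215 in the epl1ab-labelled libraries, a fall of 3.57-fold (log2 fold change -1.84 ± 0.074 SE, edgeR). CMK, the kinase of a later step, fell 2.69-fold from 2525 ± 152 to 938 ± 70.5 (SD, n = 3 per group). No gene for DXP synthase, the entry enzyme, was listed, and 9 of 11 genes of this list are not analysed here.

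Geranylgeranyl diphosphate synthases join the units into the precursor of carotenoids and phytyl, and the 3 listed genes all rose from few reads. These 3 are 23.1% of the 13 genes in this list, beside 12.3% of all nuclear protein-coding genes listed higher. AT3G20160, described as a mitochondrial form, had 2, 5.37 and 3.66 normalised reads in Col-0 and 20.8, 38.6 and 22.6 in the epl1ab-labelled libraries. AT3G32040 had 13, 16.1 and 19.5 in Col-0 and 52.8, 58.8 and 84.5 in the epl1ab-labelled libraries. AT2G18620 had 27, 30.1 and 22.0 in Col-0 and 65.8, 56.9 and 67.8 in the epl1ab-labelled libraries. Their edgeR folds were 7.24, 4.05 and 2.40. They belong to a family of close copies that can share reads of 50 bases, and AT3G20160 rests on 10 Col-0 reads, so single values are uncertain. GGPS11, the main plastid enzyme of the family, is not analysed here.

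Of the carotenoid synthesis genes 6 of 18 (33.3%) were listed lower and 1 (5.56%) higher, beside 6.31% and 12.3% of all nuclear protein-coding genes. PSY, phytoene synthase, the rate-limiting first step, had 12037, 13011 and 11968 normalised reads in Col-0 and 5126, 3971 and 4050.0 in the epl1ab-labelled libraries, a fall of 2.82-fold (log2 fold change -1.49 ± 0.12 SE, edgeR). ZISO, the isomerase of zeta-carotene, had the smallest fall of the 24, 2.13-fold, with 1649, 1481 and 1565 in Col-0 and 746.1, 752.3 and 708.8 in the epl1ab-labelled libraries. LUT1 (CYP97C1, AT3G53130, chromosome 3, 19692757 to 19697542, plus strand), the epsilon-ring hydroxylase that completes lutein, fell most in this list. Its normalised reads were 3201, 3147 and 2877 in Col-0 and 530.6, 473.6 and 450.2 in the epl1ab-labelled libraries, a 6.34-fold fall (log2 fold change -2.66 ± 0.092 SE, edgeR). In the reference annotation AT3G53140 overlaps LUT1 by 1900 bases on the same strand, so reads of both cannot be told apart there.

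LUT5 (CYP97A3), the beta-ring hydroxylase that acts before LUT1, and the related CYP97B3 fell 2.69-fold and 4.87-fold, and OR-LIKE, a chaperone-like protein of the ORANGE family, 2.86-fold. Of the 9 steps from phytoene to lutein, 4 had a gene listed lower, beside 6.31% of all nuclear protein-coding genes. BCH2, a beta-carotene hydroxylase on the way to zeaxanthin, rose instead, with 47, 44.0 and 26.8 normalised reads in Col-0 and 133.3, 112.8 and 104.6 in the epl1ab-labelled libraries (2.95-fold by edgeR). AT2G32640, described as a lycopene beta/epsilon cyclase protein and outside the lists, fell 5.22-fold from 1271, 1436 and 1205 to 286.5, 249.8 and 212.5 normalised reads. The lycopene cyclases LYCB and LYCE are not analysed here.

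Beside AT2G32640, the chosen words caught 3 genes that are in no pathway list. D27, a beta-carotene isomerase at the start of strigolactone synthesis, fell 3.62-fold, with 106, 87.0 and 92.7 normalised reads in Col-0 and 24.2, 26.0 and 28.5 in the epl1ab-labelled libraries. PTC52, an oxygenase of the plastid envelope, fell 2.52-fold from 4237 ± 85.2 to 1679 ± 189 (SD, n = 3 per group). RGTB2, a subunit of the transferase that prenylates Rab proteins in the cytosol, had 120, 119.2 and 150.1 normalised reads in Col-0 and 270.1, 278.7 and 276.1 in the epl1ab-labelled libraries. RGTB2 overlaps AT3G12060 on the opposite strand by 740 bases, so the limit on strand given for PORC touches its few reads too. No listed gene matched the words tocopherol or phylloquinone.

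The rise of 4 of the 6 higher genes depended on the scaling. DESeq2 size factors estimated from the listed genes move the log2 fold changes of all genes by a median of -1.11. RGTB2 then stood at -0.020, AT2G18620 at 0.15, BCH2 at 0.46 and AT3G32040 at 0.90, with DESeq2 adjusted p of 0.946, 0.754, 0.233 and 0.0561. Such factors assume that most listed genes are unchanged, which selected genes are not. HEMA3 and AT3G20160 were still called higher there. The 24 lower genes kept their direction and their call in each alternative that fitted them. A minimum of 50 reads in every library left D27 and 5 of the 6 higher genes, all but RGTB2, out of the fit.

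Other isoprenoid products were described from the pathway lists. For phylloquinone, the electron carrier of photosystem I, 5 of 9 genes were listed lower and 0 higher. ABC4, the phytyltransferase, had 2958, 2891 and 2652 normalised reads in Col-0 and 430.2, 348.2 and 393.3 in the epl1ab-labelled libraries, a fall of 7.25-fold. AAE14 and PHYLLO, which act before it, fell 5.92-fold and 4.62-fold, and MENG and MENB 3.09-fold and 2.57-fold. For tocopherol and plastoquinone, 2 of 10 genes were listed lower and 1 higher, against 6.31% and 12.3% of all nuclear protein-coding genes. VTE3, a methyltransferase of both products, fell 2.92-fold and HST, the prenyltransferase of plastoquinone, 2.72-fold. HPPD, which makes their shared precursor homogentisate, was called higher by 2.66-fold, with 744.2 ± 18.9 normalised reads in Col-0 and 1980.1 ± 107.6 in the epl1ab-labelled libraries (SD, n = 3 per group). That call was lost with DESeq2 size factors of the listed genes (log2 fold change 0.31, DESeq2 adjusted p = 0.0867).

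**Figure D4:**
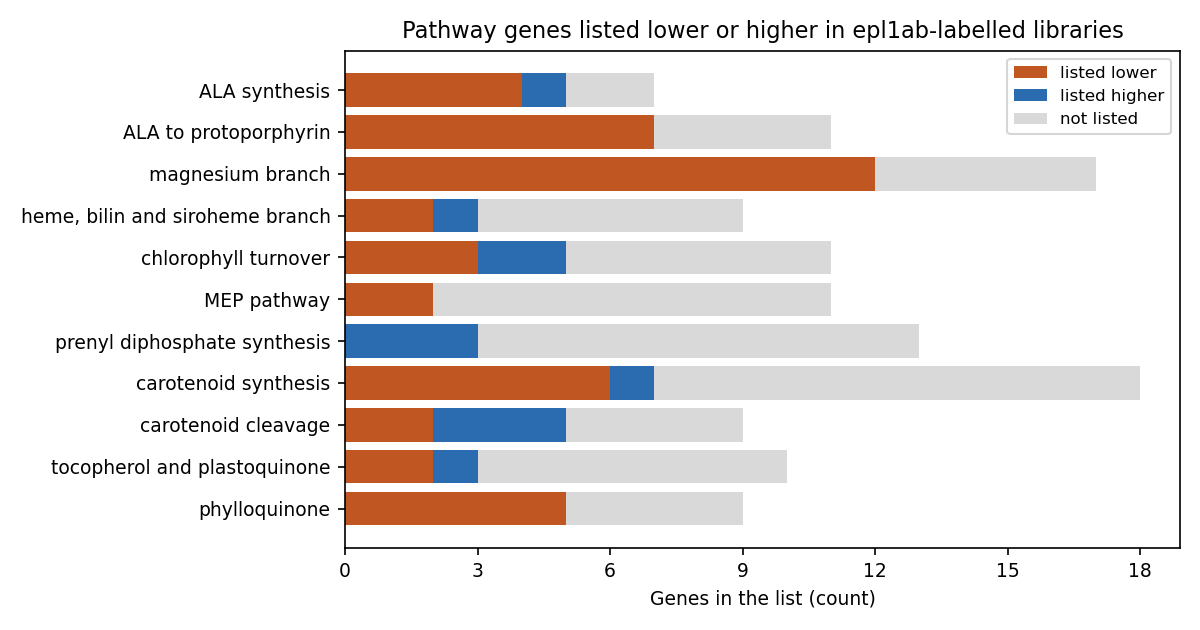
Number of genes listed lower (orange), listed higher (blue) or not listed (grey) in each of 11 pathway lists. The orange share is largest for the magnesium branch, 12 of 17, and absent for prenyl diphosphate synthesis, where 3 of 13 genes were listed higher. Of all nuclear protein-coding genes, 6.31% were listed lower and 12.3% higher.

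Of 11 genes in the regulator list, 1 (9.09%) was listed lower and 3 (27.3%) higher, beside 6.31% and 12.3% of all nuclear protein-coding genes. GLK1, which activates chlorophyll synthesis genes, fell 3.67-fold with 7008 ± 133 normalised reads in Col-0 and 1911 ± 38.2 in the epl1ab-labelled libraries (SD, n = 3 per group). HY5, HYH and CGA1, which also promote greening, were called higher by edgeR, with log2 fold changes of 1.15, 2.32 and 1.39. With DESeq2 size factors of the listed genes HY5 stood at 0.043 and CGA1 at 0.28 and neither was called (DESeq2 adjusted p of 0.848 and 0.275), whereas HYH stood at 1.22. The other 7 of 11 regulators are not analysed here. Motifs of DNA-binding factors were searched in the 250 bases before each gene's annotated start, on both strands. The G-box CACGTG, bound by bZIP and bHLH factors such as HY5, was before 2 of the 24 lower genes and 1 of the 6 higher ones (BCH2), beside 6.49% of 27443 protein-coding genes. CCAATC, associated with GLK factors, was in 2 of 24 and 2 of 6, beside 10.2% of all, and GATAAG, the I-box of light-responsive promoters, in 3 of 24 and 1 of 6, beside 12.3%. A match is not a binding site, and a missing match says only that the letters are not in this window. The 200 bases before BCH2, the higher gene with a G-box, are shown 5′ to 3′ from the minus strand of RefSeq TAIR10.1, at chr5:21337127-21337326, with the G-box in capitals.
BCH2: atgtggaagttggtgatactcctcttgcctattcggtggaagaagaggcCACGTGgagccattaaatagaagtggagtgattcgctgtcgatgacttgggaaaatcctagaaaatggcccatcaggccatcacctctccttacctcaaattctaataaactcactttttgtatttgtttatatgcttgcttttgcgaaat
The motif begins 151 bases before the start of BCH2.

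The epl1ab-labelled libraries differed slightly among themselves. Replicate 1 had the highest level of the 3 in 21 of the 24 lower genes (87.5%), as it had in 70.2% of all genes listed lower. The median log2 ratio of the 24 genes to the Col-0 mean was -1.64, -1.78 and -1.80 in replicates 1, 2 and 3. The same libraries differed far more in seed genes. Over the 15 of 16 embryo and seed maturation markers in the tables, normalised reads summed to 410, 373.8 and 43.9 in Col-0 and to 1172, 204923 and 297253 in epl1ab-labelled replicates 1, 2 and 3. LEC1 alone of the 15 was at 0 in all Col-0 libraries. When replicate 1 alone stood for the epl1ab-labelled group, with its low seed gene reads, the median log2 fold change of the 30 genes was -1.61. The edgeR fit with that lone library, which borrows its spread from the other group, still called 93.4% of the 4851 genes in it, so its calls of these 30 genes say little. Of 9 root markers, PLT1 and RHD6 were in the tables, both higher, and summed to between 10.7 and 32 normalised reads in Col-0 and between 54.5 and 66.1 in the other group. The part of these markers in the results was not tested.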

How the data were processed

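Whole-seedling RNA was sequenced in 6 libraries after removal of ribosomal RNA, with single-end reads of 50 bases, per the labels' protocols. The submitters' processing notes name TAIR10 and DESeq2; the aligner, the read counter and its strand setting are not named in these sources. The authors deposited raw read counts per gene, log2 fold changes, and p-values with false discovery rates, per the file headers, for genes past their thresholds only.

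Since unlisted genes are not analysed here, the scaling between libraries was recovered by least squares from the deposited log2 fold changes of the 1774 genes that reached 200 reads in each library (median absolute residual 0.00029). With these factors as library sizes, edgeR 4.0.16 fitted counts of the 4773 genes that passed its filter on low counts, with no covariate, and p-values were adjusted over all of them by Benjamini-Hochberg. The SE is the log2 fold change divided by the square root of F. The script was tested on simulated data. Adjusted p-values do not control false calls here, since genes were selected on the same libraries. Read totals limit precision most for the higher genes.

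Gene coordinates are the authors'; 29 of the 30 genes have the same start and end in RefSeq TAIR10.1, which gave exon lengths, overlaps and sequences. For 13 rows with a shared symbol the locus was reassigned by coordinates. The genes, the pathway and marker lists and the naming rule were chosen with earlier results of these data known, and the order of enzymatic steps was drawn up after the values had been seen. All genes chosen by description are named; values in every library go to the 3 with the largest fall in each role, to those listed higher and to gene families. Alternatives were other scalings (TMM, DESeq2 1.42.0), DESeq2, other filters, a replicate block and leaving out each library. Of the upstream windows searched, only that of BCH2 is printed.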

Additional observations from a re-analysis of the deposited data

How the results depend on the processing

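The count of 24 genes called lower was obtained under each alternative except a minimum of 50 reads in every library, which fitted 24 of the 30 genes and called 23 of them lower and 1 higher. The median log2 fold change of the 30 genes, -1.66, was -2.09 with TMM factors and -2.77 with DESeq2 size factors, both estimated from the listed genes, which move the median of all genes by -0.43 and -1.11. It was -1.61 with epl1ab-labelled replicate 1 alone, where the lone library is assumed to vary like the others. Leaving out 1 library gave -1.70 to -1.64. With DESeq2 size factors 2 of the 30 genes were called higher instead of 6, and 6 of the pathway list genes instead of 11. DESeq2 with the recovered scaling called 12 pathway list genes higher. Neither DESeq2 fit used the edgeR filter on low counts. The filter at 50 reads left 1 of the 30 genes and 2 of the pathway list genes called higher. RGTB2 changed sign with DESeq2 size factors, to -0.020. The largest change of a gene's fold on leaving out 1 library was 1.31 times, for AT3G20160. With the replicate number as a block the calls were 24 lower and 6 higher, and 4750 of 4773 genes were called. Deviations of same-numbered libraries from their group means correlated at -0.28, -0.04 and -0.21 over genes, and those of other pairs at -0.18 to 0.24. Deviations within a group cancel out, which ties these values together, so they cannot decide whether the numbers pair the samples.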

Other observations

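Of 11 genes for chlorophyll turnover, 27.3% (3 genes) were listed lower and 18.2% (2 genes) higher, against 6.31% and 12.3% of all nuclear protein-coding genes. HCAR, which reduces 7-hydroxymethyl chlorophyll a in the chlorophyll cycle, fell 6.08-fold by edgeR, with 3466 ± 238 normalised reads in Col-0 and 569 ± 7.15 in the epl1ab-labelled libraries (SD, n = 3 per group). CLD1, a dephytylase, fell 3.44-fold and NOL, a chlorophyll b reductase, 2.87-fold. CLH2, a chlorophyllase, had 78, 89.2 and 70.8 normalised reads in Col-0 and 829.2, 688.7 and 661.1 in the epl1ab-labelled libraries, a rise of 9.14-fold. SGR2, a stay-green protein, was called higher by 3.13-fold, from 59.97 ± 14.9 to 188.4 ± 60.6 (SD, n = 3 per group).

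Of 9 genes for carotenoid cleavage, 2 (22.2%) were listed lower and 3 (33.3%) higher, beside 6.31% and 12.3% of all nuclear protein-coding genes. CCD1, a dioxygenase that forms volatile apocarotenoids, fell 3.01-fold, and NCED3, which acts in abscisic acid synthesis under drought, 2.46-fold. CCD8, of strigolactone synthesis, had 59, 63.4 and 52.5 normalised reads in Col-0 and 190.4, 164.0 and 186.6 in the epl1ab-labelled libraries, a difference of 3.09-fold. With DESeq2 size factors of the listed genes SGR2 and CCD8 were not called (DESeq2 adjusted p of 0.121 and 0.0795), whereas CLH2 was, at a log2 fold change of 2.09. NCED9 had 4, 2.15 and 0 against 15.6, 20.3 and 53.6. NCED2, left out by the filter on low counts, had 1 read in all Col-0 libraries together and 46 in the epl1ab-labelled ones.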
